A study of Mus musculus with 9 samples.

Results

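Suspension-arrested G0 myoblasts (G0 MB) were set against growing myoblasts (MB) on 3 of the 9 two-colour cDNA arrays of the series, and the comparison is described across all clones with a gene symbol. Both states were cultures of the C2C12 mouse myoblast line, with no genetic change named in either, and both media held fetal serum. MB grew on a dish, and G0 MB were held for 48 h as separate cells in a semi-solid medium, where they have no anchorage. On replicates 1 and 3 the RNA of G0 MB carried Cy5 and that of MB Cy3, and on replicate 2 the dyes were reversed. Every ratio was taken from the intensities of the spots above the detection limit in at least 1 channel, turned to G0 MB over MB by the labelled dyes, and averaged over duplicate spots. The arrays carried up to 15294 clones, of which 11140 had a symbol, for 7612 symbols. At least 1 of the 3 arrays gave a value for 11986 clones, all 3 gave one for 5200, and 6903 clones could be tested, 5133 of them with a symbol, for 3982 genes. C2C12 is 1 line grown in culture, and it stands in for the muscle stem cell only as far as a line can. The methods of the study count a biological replicate and a dye reversal among the arrays of each pair, and the labels leave unsaid which of them were separate cultures, so the p-values measure the spread between these arrays, which may be technical.

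G0 is the state of a cell that has left the division cycle and can come back to it. Satellite cells, the stem cells of adult skeletal muscle, rest in G0 until injury calls them back. The study describes C2C12 myoblasts held in suspension as cells that stop dividing and start again once back on a surface. A resting cell makes little DNA, few ribosomes and few mitotic proteins. Lysosomes, the acid compartments that take apart proteins, lipids and whole organelles delivered by autophagy, are known to matter for the upkeep of resting stem cells.

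The 3 arrays were not alike. Over the clones that both measured, the log2 ratios of replicates 1 and 2 had a Pearson r of 0.680 (Spearman rho 0.681, 7595 clones), and 76.9% of these clones lay on the same side of 0. Replicate 3 had an r of 0.202 with replicate 1 (rho 0.159, 5533 clones) and of 0.204 with replicate 2 (rho 0.141, 6003 clones), with 53.7% and 53.3% of clones on the same side. These correlations run across clones of arrays that share MB and G0 MB as samples, and clones are not replicates. Where both channels were above the limit the r values were 0.702, 0.234 and 0.147 in the same order. The clone names of replicate 3 followed the other of the 2 layouts, of 15247 clones, although its values were deposited under the platform of replicates 1 and 2. It also came without the annotation against which the clone names of the other arrays were checked. Layout, naming of the clones and array therefore cannot be told apart. Its ratios were also the narrowest, with a median absolute deviation of 0.49, against 1.00 on replicate 1 and 0.72 on replicate 2, although its duplicate spots had an r of 0.911, against 0.878 and 0.902. On replicate 3 the G0 MB channel was above its limit for 51.9% of the clones with a value and the MB channel for 97.5%, where replicate 1 had 73.2% and 88.6%, and replicate 2 78.6% and 96.4%. Values are therefore given for each array, and calls of the main lists also without replicate 3, where 3.94% of all genes were called up and 4.03% down.

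**Figure D1:**
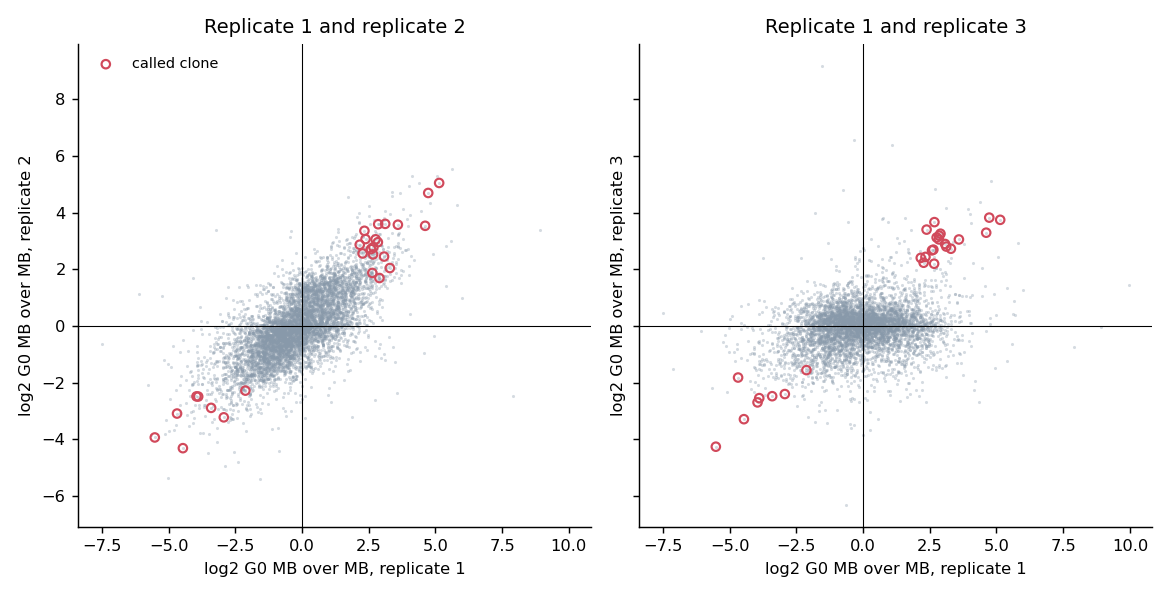
Log2 ratio of G0 MB over MB of each clone on replicate 1 (x axis) against replicate 2 (left, y axis) and replicate 3 (right, y axis); grey points are clones and red circles the 27 called clones. The cloud follows the diagonal for replicates 1 and 2 (r 0.680) and lies nearly flat for replicate 3 (r 0.202), while the circled clones lie far from 0 on all 3 arrays. The circled clones were selected on these same values.

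How far replicate 3 followed the others depended on the direction and the size of the ratio. Among 58 clones whose mean log2 ratio over replicates 1 and 2 was below -3, 86.2% were also below 0 on replicate 3, with a median of -1.14 there. Between -3 and -2 it was 82.7% of 220 clones. On the upper side 67.8% of the 59 clones above 3 were above 0 on replicate 3, with a median of 1.12, but only 48.2% of the 222 clones between 2 and 3 and 50.1% of the 688 between 1 and 2. Transcripts strongly lower in G0 MB were thus lower on replicate 3 as well, while those moderately higher lay on either side there.

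**Figure D2:**
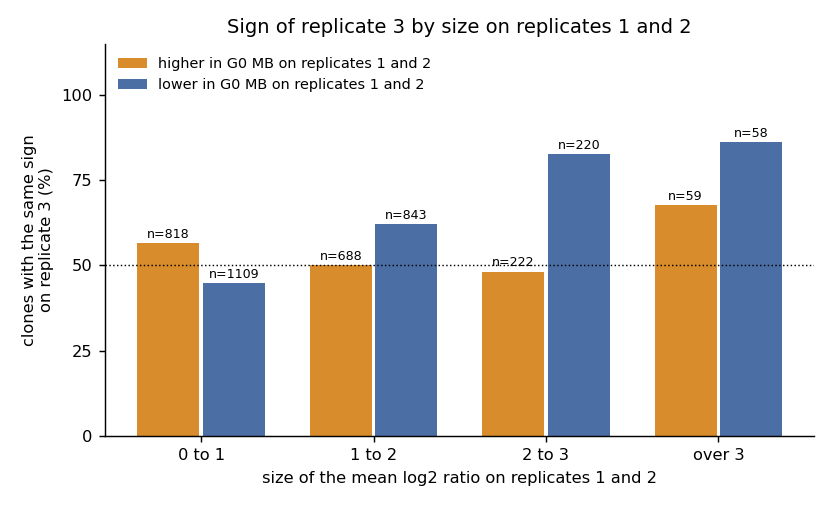
Percent of clones with the same sign on replicate 3 as on replicates 1 and 2 (y axis), by the size of the mean log2 ratio on replicates 1 and 2 (x axis), for clones higher in G0 MB (orange) and lower (blue), with the number of clones above each bar. Blue bars climb from 44.9% to 86.2%, and orange bars reach 67.8% only over 3; the dotted line is 50%.

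Against that background 27 of 6903 clones (0.391%) passed an adjusted p (limma, Benjamini and Hochberg) under 0.04 and a mean ratio past 1.6-fold, a log2 of 0.67. They were 19 raised (0.275%) and 8 lowered clones (0.116%), and 24 of them belonged to 20 named genes, 17 raised and 3 lowered. Taking each gene by its brightest clone, 15 of 3982 genes were called up (0.377%) and 3 down (0.0753%). The limma test pooled its spread over all 9 arrays. Both arrays of differentiated myotubes (MT) over MB opposed each other by their labelled dyes (r of -0.486 over 5502 clones), and they enter that spread: with 1 of the 2 turned, 104 clones were called up and 100 down, and without both 63 and 39. A repeat of the loess step called 18 up and 3 down. Without replicate 3, 329 clones were called up (5.72% of 5755) and 238 down (4.14%), with all 20 genes among them, while without replicate 1 or replicate 2 none was, with 184 up and 260 down, and 249 up and 293 down, at an unadjusted p under 0.05. The called clones of the 20 genes kept their direction on each of the 3 arrays, which their selection on these same arrays favours. Counts of calls in the gene lists are those of this main fit unless another setting is named.

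**Figure D3:**
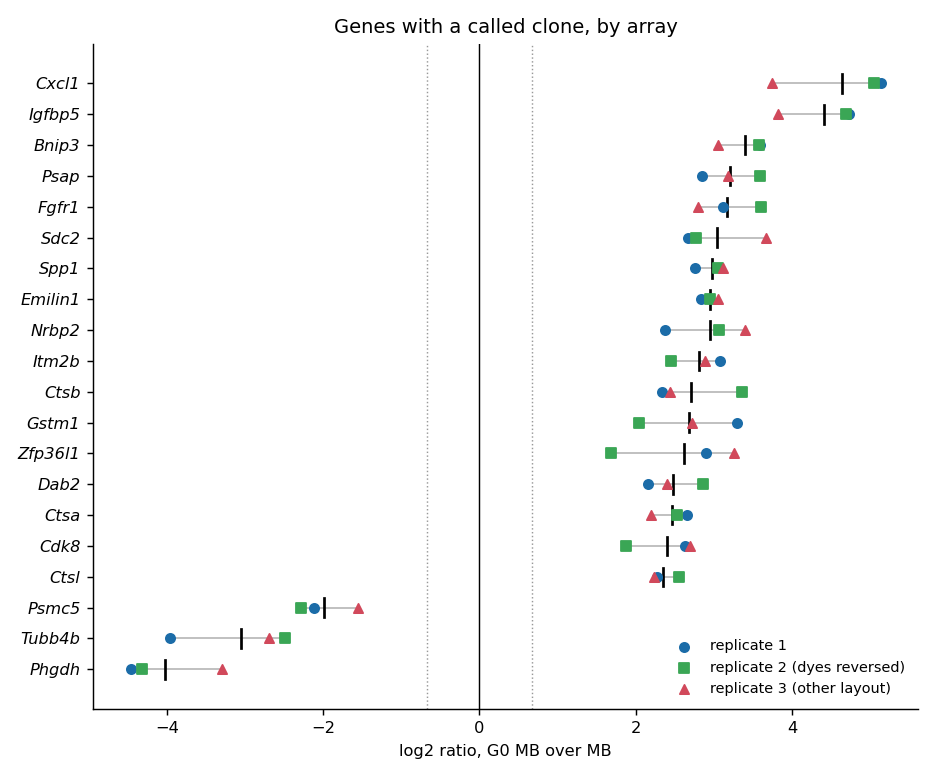
Log2 ratio of G0 MB over MB (x axis) on each array for the 20 genes with a called clone (y axis), each shown by its called clone, with replicate 1 as circles, replicate 2 as squares, replicate 3 as triangles and the mean as a black bar; dotted lines mark 1.6-fold. All 60 points, of genes selected on these same values, lie past 1.6-fold, from Phgdh at -4.47 to Cxcl1 at 5.14.

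Lysosomal hydrolases had the highest median of the gene lists with at least 5 genes tested, and theirs was the only list with a median above 1 on each of the 3 arrays. Of 21 tested genes for cathepsins and other lysosomal hydrolases, 3 were called up and none down. With replicate 1 of MT over MB turned, 7 of 21 were called up and none down (61 up and 53 down of all 3982 genes). The median log2 ratio was 1.40, against -0.15 for all genes, and it was 1.32, 1.53 and 1.66 on replicates 1, 2 and 3. Of the 14 genes measured on all 3 arrays, 10 were above 0 on each (16.8% of all genes), 8 of them past 1.6-fold on each (3.13% of all genes), and 1 was below 0 on each. Psap, from which the saposins are cut, small proteins that lysosomal enzymes need to break down sphingolipids, had log2 ratios of 2.85, 3.59 and 3.18. Its G0 MB intensities were 458233, 577117 and 59569 against MB intensities of 63944, 47636 and 6526, all above the limits. Every array thus showed it several times brighter in G0 MB, a mean of 9.25-fold (log2 3.21 ± 0.37, SD, n = 3, adjusted p = 0.012). Ctsb, a cysteine protease of the lysosome, had 2.34, 3.36 and 2.44 (6.54-fold, adjusted p = 0.018). Ctsa, a carboxypeptidase that also shields beta-galactosidase and neuraminidase in the lysosome, had 2.66, 2.52 and 2.20 (5.50-fold, adjusted p = 0.031), with MB under its limit on 1 array. Ctsl, another cysteine protease, was called through its dimmer clone, at 2.27, 2.56 and 2.23 (5.11-fold, adjusted p = 0.035), while its brighter clone had 2.73, 2.59 and 2.04 (adjusted p = 0.058). Hexa, a subunit of beta-hexosaminidase, had 2.65, 2.02 and 2.69 (adjusted p = 0.058), and Tpp1, a tripeptidyl peptidase, had a mean of 1.58 (adjusted p = 0.056); both were named after their values were seen. Both channels of these 2 genes were above the limit on all 3 arrays. When only spots with both channels above the limit were kept, 7 of 13 hydrolases tested were called up (2.74% of all genes) and none down (3.07% of all genes), where the shares of clones were 3.54% and 3.24%. Without replicate 3 it was 6 of 20 hydrolases up (3.94% of all genes).

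Ctsa and Ctsl are shown with their promoters because both were called up and their windows hold an E-box, in Ctsa within the longer motif that is best known for lysosomal genes. The windows run from 250 bases before to 50 bases after the start of transcription (RefSeq, GRCm38.p6). The motifs searched on both strands were CACGTG, the E-box, TCACGTGA, the core of the motif that TFEB and its relatives bind at lysosomal genes, which contains the E-box, and ACGTGC, a core of hypoxia response elements, which can overlap both. Capitals mark every match. The Ctsa window, 1 of 2 for this gene, lies at chr2:164833523-164833822 on the plus strand, and that of Ctsl at chr13:64370471-64370770 on the minus strand.
Ctsa: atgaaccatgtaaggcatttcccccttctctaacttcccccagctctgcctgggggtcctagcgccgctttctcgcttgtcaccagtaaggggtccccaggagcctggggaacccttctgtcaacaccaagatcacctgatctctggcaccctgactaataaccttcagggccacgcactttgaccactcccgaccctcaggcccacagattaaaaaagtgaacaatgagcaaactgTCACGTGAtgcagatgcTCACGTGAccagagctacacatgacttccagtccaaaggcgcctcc
Ctsl: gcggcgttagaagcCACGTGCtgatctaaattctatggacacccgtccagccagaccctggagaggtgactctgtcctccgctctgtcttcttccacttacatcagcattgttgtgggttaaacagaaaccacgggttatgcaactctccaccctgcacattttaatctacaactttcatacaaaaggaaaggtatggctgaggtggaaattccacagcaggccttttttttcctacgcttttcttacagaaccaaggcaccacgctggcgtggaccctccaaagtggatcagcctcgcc
TCACGTGA stands in the Ctsa window 2 times, and 0.974% of 32851 such windows of mouse genes hold it. The Ctsl window has a CACGTG that runs on as ACGTGC, where 7.15% of all windows hold CACGTG and 5.91% ACGTGC. Windows could be matched for 16 of the 20 called genes, and 4 of these had CACGTG. The 2 windows of Psap had no match to any motif searched.

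The lysosomal membrane, the proton pump and autophagy moved less. Of 23 genes tested 1 was called up, and the median was 0.66, with 0.37, 1.08 and 0.44 by array. None of the 16 measured on all 3 arrays was below 0 on each (24.8% of all genes), and 10 were above 0 on each (16.8% of all genes). Without replicate 3, 4 of 22 were called up (3.94% of all genes) and none down. The gene called in the main fit was Bnip3, a protein of the outer mitochondrial membrane that takes part in the removal of mitochondria and is known as a hypoxia target. Its log2 ratios were 3.59, 3.57 and 3.05 (adjusted p = 0.012). MB lay under the limit on all 3 arrays, so that Bnip3 was at least 5.92-fold higher in G0 MB, and its p-value rests on values under the limit. Laptm4a, a lysosomal membrane protein, had 1.10, 1.08 and 1.82, and Map1lc3a, a protein of the autophagosome membrane, 2.16, 1.97 and 0.33, neither called (adjusted p = 0.11 and 0.17). Map1lc3a and Rab7 (2.13, 1.48 and 0.15), which guides fusion with the lysosome, were high on replicates 1 and 2 and near 0 on replicate 3. The Bnip3 promoter, at chr7:138909457-138909756 on the minus strand, is shown for the hypoxia core, marked in capitals where ACGTGC matched on both strands around a CACGTG.
Bnip3: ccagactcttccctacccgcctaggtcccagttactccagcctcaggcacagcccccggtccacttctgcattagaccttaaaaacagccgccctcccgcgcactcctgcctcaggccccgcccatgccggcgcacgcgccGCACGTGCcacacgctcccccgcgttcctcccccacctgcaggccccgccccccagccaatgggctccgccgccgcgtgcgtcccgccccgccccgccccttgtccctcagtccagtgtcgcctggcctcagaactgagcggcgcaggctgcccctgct

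Among growth factors, their receptors and binding proteins 2 of 12 genes were called up. Igfbp5, a secreted protein that binds insulin-like growth factors, was among the most raised transcripts, with 4.73, 4.69 and 3.82 (21.3-fold, log2 4.41 ± 0.51, SD, n = 3, adjusted p = 0.031). Its intensities in G0 MB were 554504, 1194728 and 68399, against 20910, 46258 and 4928 in MB, so that both states lay above the limit on every array. Fgfr1, a receptor for fibroblast growth factors, had 3.12, 3.60 and 2.80 (9.02-fold, adjusted p = 0.012), with MB under the limit on 1 array. Grb2, the adaptor that links such receptors to Ras, was slightly below 0 on each array, at -0.47, -0.06 and -0.86 (adjusted p = 0.40). Without replicate 3 it was 2 of 11 up (3.94% of all genes) and none down. The median of the list was 0.48, with 0.76 and 1.16 on replicates 1 and 2 but -0.50 on replicate 3.

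In the Wnt pathway, which acts through beta-catenin and is a known regulator of muscle stem cells, 1 of 25 genes tested was called up by its brightest clone and none down. The median was 0.66, with 0.97, 0.77 and 0.23 by array, and 6 of the 15 genes measured on all 3 arrays were above 0 on each (16.8% of all genes), against 1 below (24.8% of all genes). Without replicate 3, 4 of 21 were called up (3.94% of all genes) and none down. Dab2, an endocytic adaptor that restrains beta-catenin signalling, had 2.16, 2.87 and 2.40 (5.57-fold, adjusted p = 0.035). Sdc2, a cell surface proteoglycan carrying heparan sulfate, was called through 1 of its 2 clones, at 2.67, 2.78 and 3.66 (8.22-fold, adjusted p = 0.012). The brighter clone of Sdc2 had 2.15 and 2.68 on replicates 1 and 2 and no value on replicate 3. Lef1, a transcription factor that beta-catenin works with, had 1.89, 0.45 and 0.55, and Gsk3b, the kinase that marks beta-catenin for destruction, -1.55, -1.67 and -0.78, neither called (adjusted p = 0.22 and 0.13). Of 13 genes of the TGF-beta and BMP pathway none was called by limma, and their median of -0.15 was that of all genes. At an unadjusted p under 0.05, across all 6903 clones, 671 were up and 882 down.

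Cytokines and related genes had 1 call among 12. Cxcl1, a chemokine that draws neutrophils, had 5.14, 5.05 and 3.74 (adjusted p = 0.012). G0 MB intensities were 31928, 20482 and 8820, while MB was under the limit on all 3 arrays, at 900, 774 and 709, so that the ratio can only be given as at least 5.24-fold. The p-value of Cxcl1 rests on these MB values under the limit. B2m, the light chain of MHC class I, had 1.71, 1.27 and 1.34, narrow across the arrays but not called (adjusted p = 0.26). Nfkb1, a subunit of NF-kB, was at 1.79 and 2.64 on replicates 1 and 2 and at -1.35 on replicate 3. The window of Cxcl1, at chr5:90890995-90891294 on the plus strand, is shown for an NF-kB motif, GGG and TTTCC with 2 free bases between them, searched on both strands, that 1.63% of all windows hold. In capitals are its 2 matches and, further upstream, 1 of ACGTGC on the opposite strand.
Cxcl1: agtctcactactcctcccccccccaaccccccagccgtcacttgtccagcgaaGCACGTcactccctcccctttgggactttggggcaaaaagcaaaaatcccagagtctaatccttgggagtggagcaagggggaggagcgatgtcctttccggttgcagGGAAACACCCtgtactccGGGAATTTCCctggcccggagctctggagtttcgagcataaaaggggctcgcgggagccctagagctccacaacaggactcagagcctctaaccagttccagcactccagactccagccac

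Matrix proteins also had raised members. Of 28 genes for collagens and matrix proteins 2 were called up and none down, the median was 0.90 and the values by array were 1.34, 1.47 and 0.29. Of the 24 genes measured on all 3 arrays, 11 were above 0 on each (16.8% of all genes) and none below 0 on each (24.8% of all genes). Without replicate 3, 6 of 24 were called up (3.94% of all genes) and none down. With replicate 1 of MT over MB turned, 8 of 28 were called up and none down (61 up and 53 down of all 3982 genes). Spp1 (osteopontin), a secreted phosphoprotein that integrins bind, had 2.76, 3.06 and 3.12 (7.88-fold, log2 2.98 ± 0.19, SD, n = 3, adjusted p = 0.012), with G0 MB intensities of 366956, 987462 and 91780 against 53785, 119586 and 10553 in MB. Emilin1, a glycoprotein of elastic fibres, had 2.84, 2.96 and 3.05 (adjusted p = 0.023), and was at least 2.88-fold higher, since MB was under the limit throughout. Its p-value rests on these MB values under the limit. Fn1 (fibronectin) had larger values on replicates 1 and 2, 4.56 and 3.46, but 1.42 on replicate 3, and was not called (adjusted p = 0.059). Col6a1, a chain of collagen VI, fell away further, with 3.66, 4.68 and 0.16 (adjusted p = 0.13). Among 14 matrix enzymes and inhibitors none was called by limma. Timp2, an inhibitor of matrix metalloproteases, came nearest, with 1.80, 2.09 and 3.39 (adjusted p = 0.045). Without replicate 3, 2 of 13 matrix enzymes and inhibitors were called up and none down. Integrins and focal adhesion proteins lay around 0, with a median of 0.01 over 22 genes, no call in the main fit, and 4 genes each above and below 0 on all 3 arrays. Without replicate 3, 2 of these 22 were called up and none down.

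Cytoskeletal genes lay on the other side. Of 40 genes for actin, tubulin and their partners 1 was called down and none up, with a median of -0.85 (-1.07, -1.10 and -0.25 by array). Of 34 genes on all 3 arrays, 20 were below 0 on each (24.8% of all genes) and 11 below by more than 1.6-fold on each (7.16% of all genes). Without replicate 3, 3 of 40 were called down (4.03% of all genes) and none up. Tubb4b, a beta-tubulin, had -3.96, -2.49 and -2.70 (8.27-fold lower, adjusted p = 0.039), and its second called clone -4.69, -3.09 and -1.82. A spotted cDNA of a tubulin or actin can also bind transcripts of its relatives, so the value may be that of the family. Lmna, the nuclear lamin A/C, had -3.80, -1.23 and -1.38, and Tubb6, another beta-tubulin, -2.80, -1.89 and -1.71, neither called (adjusted p = 0.15 and 0.13). Against this trend Tagln (transgelin) had 1.06, 0.75 and 1.07 (adjusted p = 0.13) and Dstn (destrin), which takes actin filaments apart, 0.66, 0.48 and 1.35 (adjusted p = 0.33).

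Genes of the cell cycle had the lowest medians of all lists, yet none was called in the main limma fit. With replicate 1 of MT over MB turned, 3 of 21 replication genes and 7 of 28 mitosis genes were called down and none up. Of all 3982 genes, 53 were called down in that setting. The 21 genes for DNA replication had a median of -1.77, with -2.44, -1.99 and -0.47 by array. Of the 12 on all 3 arrays 7 were below 0 on each and none above. The 28 genes for mitosis and the spindle had a median of -1.72, with -1.94, -2.25 and -0.26, and 12 of 24 were below 0 on each array, 10 of them by more than 1.6-fold. Above 0 on each array were 2, among them Anln, with 1.075, 1.62 and 0.15 by its brighter clone. The other clone of Anln had -0.97, -2.59 and -2.23. The share of all genes was 24.8% below 0, 16.8% above 0 and 7.16% below by more than 1.6-fold. Pcna, the sliding clamp of the replication fork, had -1.72, -2.75 and -0.69, Slbp, which binds histone mRNA, -3.20, -1.43 and -0.44, and Cdk1, the kinase that starts mitosis, -3.47, -3.81 and -0.12. Birc5 (survivin), of the chromosomal passenger complex, had -2.75, -1.37 and -1.85 (adjusted p = 0.096), with G0 MB under the limit on 1 array. The size of these ratios is uncertain, since G0 MB was often under the limit and its intensities were used as deposited. Ccna2 (cyclin A2), named after its values were seen, had -4.80, -3.67 and -1.24 with G0 MB under the limit on 2 arrays. Leaving out replicate 1 moved the median of the mitosis list to -0.04 and leaving out replicate 2 to 0.01, with 15 genes tested each time. Without replicate 3, 3 of 16 replication genes and 6 of 19 mitosis genes were called down (4.03% of all genes) and none up. Restricting the arrays to spots with both channels above the limit left 10 mitosis genes, with a median of 0.19 and no call. That filter drops spots where G0 MB fell under its limit, so it favours genes that were not lowered.

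Cell cycle regulators outside the S phase and mitosis lists went both ways. Cdk8, the kinase of the Mediator complex, which relays signals to RNA polymerase II, rose, with 2.63, 1.87 and 2.69 (5.27-fold, adjusted p = 0.023) and with both channels above the limit on every array. It was the only call among 18 G1 cyclins, kinases and inhibitors, whose median was -0.32. Without replicate 3, 2 of 15 were called up (3.94% of all genes) and 1 down (4.03% of all genes). Rb1, the retinoblastoma protein, had 0.05, 1.48 and 0.42 (adjusted p = 0.30). Genes linked to growth arrest and FoxO factors had 2 calls up among 24 and a median of 1.12, with 1.27, 1.05 and 0.22 by array. Without replicate 3, 6 of 21 were called up (3.94% of all genes) and none down. Zfp36l1, which binds AU-rich mRNA and speeds its decay, had 2.90, 1.69 and 3.25 (6.12-fold, adjusted p = 0.032), and the other was Dab2, which also stands in the Wnt list. Pdcd4, an inhibitor of translation, had 2.35, 1.59 and 0.21 (adjusted p = 0.14).

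Phgdh had the lowest mean of the called genes. This gene, for the enzyme that draws 3-phosphoglycerate out of glycolysis toward serine, had 3 clones on the arrays, and each was called down. The brightest had -4.47, -4.31 and -3.29 (16.3-fold lower, log2 -4.02 ± 0.64, SD, n = 3, adjusted p = 0.0073), another -5.52, -3.94 and -4.26, and the last -2.93, -3.23 and -2.40. Intensities of the brightest clone were 134835, 166211 and 22170 in MB and 6500, 8358 and 2263 in G0 MB, which was under its limit on 1 array. All 9 values lay below -2. The list of amino acid synthesis, transport and tRNA synthetases, 29 genes, had no other call. Without replicate 3, 4 of 27 were called down (4.03% of all genes) and none up. The median of the list was -1.11 (-1.40, -1.28 and -0.40 by array), with 14 of 22 genes below 0 on all 3 arrays (24.8% of all genes) and none above (16.8% of all genes). Aars, the alanyl-tRNA synthetase, had -1.27, -1.28 and -0.91, close together but not called (adjusted p = 0.16). The Phgdh promoter, at chr3:98339920-98340219 on the minus strand, is shown as that of the most lowered gene.
Phgdh: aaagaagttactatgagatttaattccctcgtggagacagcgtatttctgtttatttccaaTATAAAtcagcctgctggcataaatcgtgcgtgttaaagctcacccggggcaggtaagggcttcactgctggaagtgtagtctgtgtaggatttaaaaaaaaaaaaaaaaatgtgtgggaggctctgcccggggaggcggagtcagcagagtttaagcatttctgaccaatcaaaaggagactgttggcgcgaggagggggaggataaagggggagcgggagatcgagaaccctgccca
In capitals is TATAAA, the only motif found there, which 13.6% of all windows hold. The E2F motif TTTNGCGC (1.38% of windows) and TGATGNAAT, a motif of the amino acid response that ATF4 binds (0.965%), had no match in any window of a called gene.

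Protein synthesis and folding had low medians with few calls. Of 58 cytosolic ribosomal proteins, 41 translation factors, 31 genes of ribosome biogenesis and 33 chaperones, none was called by limma over all 3 arrays. Without replicate 3, 2 of 58 ribosomal proteins and 9 of 40 translation factors were called down (4.03% of all genes). So were 6 of 24 biogenesis genes and 9 of 33 chaperones, and 1 translation factor was called up (3.94% of all genes). With both channels above the limit, 2 of 58 ribosomal proteins and 7 of 35 translation factors were called down (3.07% of all genes). So were 2 of 13 biogenesis genes and 7 of 31 chaperones, and 2 translation factors were called up (2.74% of all genes). Ribosomal proteins lay near the share of all genes in both settings. Of all genes measured on all 3 arrays, 24.8% were below 0 on each and 16.8% above. Ribosome biogenesis had a median of -1.11, with -1.47, -1.18 and -0.43 by array, and 15 of 23 genes below 0 on all 3 arrays against none above. Mybbp1a, a nucleolar protein that binds Myb, had -2.33, -2.12 and -1.07 (adjusted p = 0.059), and Nolc1, a nucleolar phosphoprotein, -2.21, -1.73 and -0.48 (adjusted p = 0.099). Ribosomal proteins had a median of -0.61, with 25 of 51 below 0 on all 3 arrays and 1 above. Rpl7a had -1.55, -1.92 and -2.16 (adjusted p = 0.057). Rpsa, at -0.63, -1.20 and -1.73, and Rpl14, at -1.003, -1.52 and -0.74, were not called. Translation factors had a median of -0.83 and 14 of 28 genes below 0 on all 3 arrays. Eif5a, a factor that helps peptide bonds form at difficult sequences, had -2.87, -1.30 and -1.96 (adjusted p = 0.070). Among chaperones, with a median of -0.73, Cct3 and Tcp1, subunits of the ring that folds actin and tubulin, had -3.33, -2.84 and -0.94, and -3.43, -2.02 and -0.59.

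The proteasome and ubiquitin list had 1 call among 39. Psmc5, an ATPase of the regulatory particle that feeds proteins into the proteasome, had -2.12, -2.28 and -1.56 (3.97-fold lower, adjusted p = 0.036), with G0 MB under the limit on 1 array. The other 2 of its 3 clones were not called, and the median of the 3 clones was -1.79, -2.07 and 0.06 by array. The list had a median of -0.71, with -1.20 and -1.001 on replicates 1 and 2 and 0.20 on replicate 3. Without replicate 3, 8 of 33 were called down (4.03% of all genes) and none up. With both channels above the limit it was 6 of 32 down (3.07% of all genes) and none up. Psmb4, a subunit of the core, had -1.47, -1.92 and -0.82 (adjusted p = 0.078), whereas Nedd4, a ubiquitin ligase, had 0.96, 0.74 and 0.80 (adjusted p = 0.37). Splicing factors and hnRNP proteins had no call among 36 (limma, main fit), a median of -0.71 and values near 0 on replicate 3 (median -0.12). With both channels above the limit, 5 of 30 were called down (3.07% of all genes) and none up. Without replicate 3 it was 1 of 35 down (4.03% of all genes) and none up.

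Among the lists of energy metabolism, the joint list of glycolysis and hypoxia genes lay above 0 in the median and the mitochondrial lists below. Of all genes measured on all 3 arrays, 16.8% were above 0 on each, 24.8% below, and 7.16% below by more than 1.6-fold. Glycolysis and hypoxia genes had Bnip3 as the only call among 23 and a median of 0.43, with 8 of 20 genes above 0 on all 3 arrays and 3 below. Hmox1, the haem oxygenase, had 1.68, 2.01 and 0.88 (adjusted p = 0.086), while Eno1 and Pkm, glycolytic enzymes, were below 0 on each array, with -1.28, -0.77 and -1.32, and -1.29, -0.95 and -0.35. Oxidative phosphorylation, 49 genes with no call, had a median of -0.47, and 14 of 33 were below 0 on all 3 arrays with none above. The citrate cycle and mitochondrial matrix, 28 genes with no call, had a median of -0.70, and 8 of 17 were below 0 on all 3 arrays with 1 above. Without replicate 3, 4 of 48 genes of oxidative phosphorylation were called down and none up. Of 26 citrate cycle and matrix genes 1 was called each way, near the shares of all genes, 3.94% up and 4.03% down. Uqcrc1, a core protein of complex III, had -1.45, -1.94 and -2.29 (adjusted p = 0.091). Cholesterol and fatty acid synthesis, 15 genes with no call, had a median of -0.26, and by array it was lowest on replicate 3, at -0.83 against -0.33 and -0.14. Of its 11 genes on all 3 arrays 7 were below 0 on each and none above, and 5 were lower by more than 1.6-fold on each, among them Fdft1 and Fasn, known targets of the SREBP factors that were named after their values were seen. Fdft1, squalene synthase, had -3.13, -2.35 and -1.29 (adjusted p = 0.091), and Fasn, the fatty acid synthase, -3.06, -2.22 and -1.43 (adjusted p = 0.095), with G0 MB under the limit on 2 arrays for both. Among 29 glutathione and antioxidant genes, with a median of 0.02, Gstm1, a glutathione transferase, was called up, with 3.29, 2.04 and 2.72 (6.44-fold, adjusted p = 0.035). Prdx4, a peroxiredoxin of the secretory pathway, had 1.63, 1.14 and 2.25 (adjusted p = 0.22), whereas Prdx6 was at -2.41 and -2.46 on replicates 1 and 2 and at 0.24 on replicate 3.

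Itm2b, a transmembrane protein that is cut by furin, and Nrbp2, a pseudokinase, were called and belong to none of the lists. Itm2b was called through both of its clones, at 3.07, 2.45 and 2.89 for the brighter (6.98-fold, adjusted p = 0.029) and 2.58, 2.71 and 2.67 for the other, with both channels above the limit on every array. The 6 values lay between 2.45 and 3.07, the most alike of any gene called through more than 1 clone. Nrbp2 had 2.38, 3.07 and 3.40 (adjusted p = 0.032), with mean MB intensities of 4063, 1021 and 681, each below the limit of its array, so that no fold is given. Of the 3 called clones without a symbol, H3061F03 had 4.61, 3.53 and 3.29 and was at least 6.05-fold higher in G0 MB, while H3134A03 and H3024D08 were lower, with -3.89, -2.49 and -2.55, and -3.41, -2.89 and -2.48.

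The identity of the cells could hardly be read from these arrays. None of the 8 myogenic markers (among them Myod1, Myf5, Myog and Pax7) had a clone with its symbol in the tables used here, and of 9 markers of differentiated muscle only Mylpf was tested, at 0.57, -0.52 and 1.39. Of 17 genes of quiescent satellite cells tested none was called by limma in the main fit, with a median of 0.87 (1.62, 0.87 and 0.30 by array). On all 3 arrays 5 of 9 were above 0 (16.8% of all genes) and 1 below (24.8% of all genes). Without replicate 3, 3 of 15 were called up (3.94% of all genes) and none down. Of markers of other cells, 1 of 6 for macrophages was on the arrays and not tested, and 1 of 5 for adipocytes was tested, Lpl, at 2.89, 3.23 and 2.01 with MB under the limit throughout (adjusted p = 0.058). Of 3 fibroblast markers tested, Dcn had 2.74, 3.36 and 2.05, also with MB under the limit, and Col1a1 and Col1a2 were above 0 on replicates 1 and 2 and below on replicate 3, at -0.87 and -0.72. Their part in the raised matrix genes was not tested. Total RNA of a culture does not tell fewer cells of a kind from less RNA per cell, and LOWESS centres each array, so that a fall in all mRNA of a resting cell would not show.

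**Figure D4:**
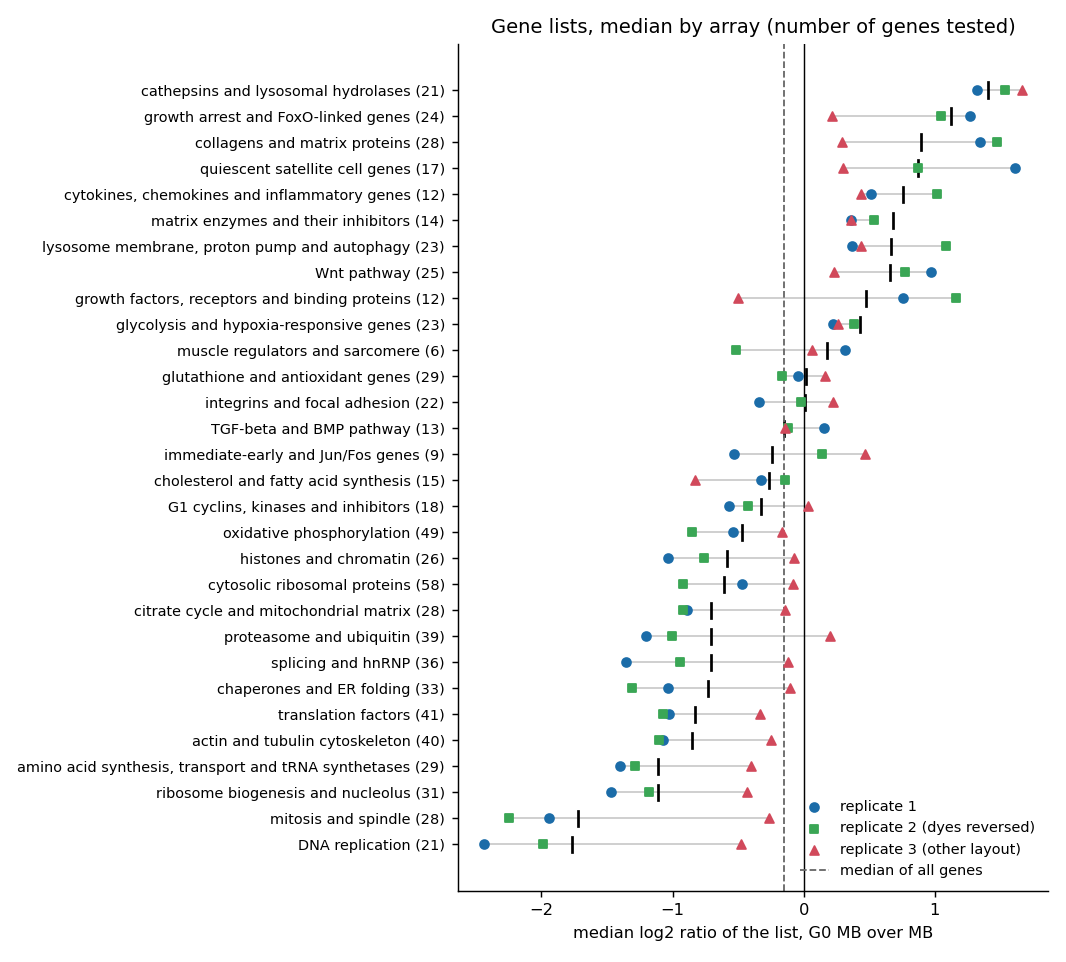
Median log2 ratio of G0 MB over MB (x axis) of each gene list with at least 5 genes tested (y axis, number tested in brackets), on replicate 1 (circles), 2 (squares) and 3 (triangles), and of the gene means (black bar); the dashed line is the median of all genes. Lists run from DNA replication at -1.77 to cathepsins and lysosomal hydrolases at 1.40, and replicate 3 is nearest to 0 in most rows but at 1.66 for the hydrolases.

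Several clones of 1 gene gave a check within the arrays. On all 3 arrays 123 genes had 3 or more clones, and in 62 of them all clones had their means on the same side of 0. The median SD between the clones of a gene was 0.36, taken over their means of 3 arrays, and the median SD between single arrays was 0.64, so that the 2 values are not on the same footing. Hsp90ab1, a chaperone, had 8 clones between -1.62 and -0.86, each below 0 on all 3 arrays. Actb (beta-actin) had 8 of 9 clones below 0 with a median of -1.37, and medians of -1.75, -1.05 and -1.58 by array. Cct3 had 4 clones between -2.71 and -2.37, with -3.57, -2.71 and -1.16 by array, and Rpsa 4 between -1.33 and -1.05. Rpl10 and Eef1a1, which serve ribosomes and elongation, stayed near 0 with 7 clones between -0.31 and 0.12 and 6 between -0.33 and 0.06. Tubb5, another beta-tubulin, spread the most of the genes with 6 or more clones, with 5 clones between -2.29 and -1.16 and 1 at 0.54.

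**Figure D5:**
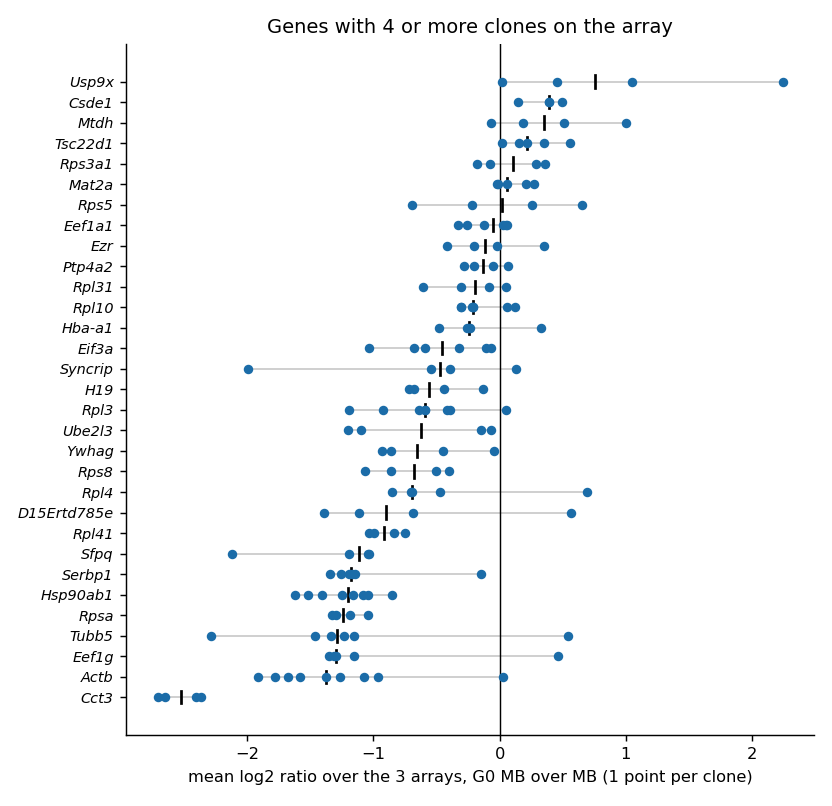
Mean log2 ratio of G0 MB over MB over the 3 arrays (x axis) of each clone (points) of the genes with 4 or more clones measured on all 3 arrays (y axis), with the median as a black bar. The clones of Cct3 and Hsp90ab1 lie wholly below 0, and those of Rpl10 and Eef1a1 within 0.33 of it.

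Replicate 3 opposed the other arrays for 510 of the 1443 genes with both channels above the limit on all 3. The largest gaps on the side where replicate 3 was higher were those of Psma5, a core subunit of the proteasome (-2.05, -1.79 and 0.99), Cdv3 (-2.19, -2.01 and 0.79) and Prdx6. On the other side were Son, a splicing cofactor (1.40, 1.07 and -2.64), Nfkb1 and Ndufaf6, an assembly factor of complex I (3.41, 2.39 and -0.45). None of these 6 was called by limma, with adjusted p between 0.16 and 0.97.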

How the data were processed

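RNA of G0 MB and MB was hybridized together on NIA 15K spotted cDNA arrays. The Cy3 and Cy5 intensities were quantified, background-subtracted and LOWESS-normalized by the authors before deposit, with ArrayVision for the first steps (its version is not given in the sources used here). The design had foreseen raw intensities, so its background correction and loess were left out of the main values. The deposited log2 ratios of the authors were used only as a check and, from their value table, as an alternative: for these 3 arrays they equalled G0 MB over MB by the labelled dyes in 100% of spots. For each of the 2 arrays of MT over MB they equalled the ratio by the labelled dyes in 0.0157% of spots, and its opposite in 0.0157%. A spot was kept where its deposited flag was 1, that is, where at least 1 channel exceeded the detection limit of the array, which was 6877, 4580 and 5554 for G0 MB and 4868, 2765 and 2971 for MB. Spots above it made up 50.0%, 61.1% and 46.6% of an array, for 8349, 9872 and 7696 clones. The number of arrays limits the precision: 3 arrays allow no two-sided sign-flip p under 0.25, so single values have no test beside the fit.

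The log2 ratios were fitted in limma 3.58.1 (R 4.3.3; lmFit, eBayes) with 1 coefficient for each of the 4 comparisons over all 9 arrays. The fit was also run on simulated ratios whose noise took the spread of the main fit, which is no test of how far these arrays differ. A clone needed values on 2 arrays and 2 residual degrees of freedom. A call was an adjusted p under 0.04 with a ratio past 1.6-fold, the limits in the study's methods. SAM over single spots was not run, since duplicate spots are not replicates. Where a channel was under its limit on every array, the fold is a lower bound with the limit in its place. Such a clone passed the detection filter only through its other channel. Its log2 ratios and p-value rest on the deposited intensities, also those under the limit. A gene was taken by its brightest clone on these arrays. Symbols were updated through RefSeq (GRCm38.p6), which matched 10668 of the 11140 clones with a symbol and changed 3694. Named are all called genes, per list up to 3 genes each way with the same sign on 3 arrays and both channels above the limit on 2, genes with several clones, and the genes that replicate 3 opposed most. The lists, the rule and the motifs were chosen with earlier results of these data known, and the lists were only counted. Python 3.11.15 with pandas 2.3.3 served for joining, and numpy 2.4.6 for averages. Titles were followed where the treatment text, which speaks of cells put back on a dish, differed. Some items are not reported here.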

Additional observations from a re-analysis of the deposited data

How the results depend on the processing

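Against 19 clones called up and 8 down, the count up was 48 and down 38 with just these 3 arrays in the fit, 104 and 100 with replicate 1 of MT over MB turned, 63 and 39 without both arrays of MT over MB, 155 and 142 with both channels above the limit, 1 and 2 with no detection filter, and 0 and 0 with arrays scaled to 1 spread (337 and 494 at an unadjusted p under 0.05). It was 39 up with median centring, 3 down with the loess repeated and 3 down with a dye term. The value table of the authors gave 103 and 101, eBayes with trend and robust settings 58 and 51, and ratios past 1.6-fold on each of the 3 arrays, with no test, 176 and 361. That value table holds the same ratios as the main fit for these 3 arrays but other ratios for MT over MB. It is therefore no separate check of the 3 arrays. Which direction of the MT over MB arrays is right was not tested. Leaving out 1 replicate gave from 0 to 329 up and from 0 to 238 down. Of the 20 called genes, all kept their direction wherever they had a value. They were selected on these same values, so the kept direction is no test of them. All 20 stayed called with the value table, median centring, trend and robust settings, and without replicate 3, 19 with just these 3 arrays, 16 with the loess repeated, 16 of 16 with both channels above the limit, 11 with the dye term, 2 with no filter, and none with scaled arrays or without replicate 1 or 2.

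With the replicate number as a block 2 clones were called up and 2 down. Arrays of the same number did not deviate together (r between -0.254 and 0.0398 with the other comparisons). These values cannot show whether arrays of the same number shared a culture, and the labels do not say. Median centring moved all genes up by about the arrays' medians of -0.22, -0.15 and -0.11.

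No called gene changed sign, which their selection on these same values favours. Anln became -0.49 and Nfkb1 -0.0768 as means over all clones, Iars 0.77 with both channels above the limit, and Gpx8 0.0964 with median centring. Son became 0.0814 with a dye term, 0.0983 with median centring and 0.0241 over all clones, and ran from -0.79 to 1.23 when 1 replicate was left out. The cause of these changes was not tested.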
